A study of Mus musculus with 28 samples.

Results

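The genes described here are 40 genes of DNA replication and nucleotide synthesis in mouse small-intestinal organoids, taken by symbol from lists of the replication machinery. The choice was made with earlier results of these data known. All 40 were found among the 29413 genes of the table of BMP-treated organoids and among the 55416 genes of the table of Tgfb-treated organoids and of the mesenchymal table. Each passed the filter on low values in both organoid tables, so no member was lost before testing. Organoids are epithelial cultures grown from intestinal crypts in a gel matrix, here from wild-type C57BL/6 mice. They were kept for 48 h in ENR medium without added Bmp or Tgfb, then moved to fresh gel and given 1 recombinant ligand. The groups were untreated (4 samples), BMP2 (4 samples), and BMP3, BMP4, BMP5 and BMP7 (3 samples each), with every ligand at 500 ng/ml for 24 h. A separate experiment compared 3 untreated samples with 3 samples given Tgfb at 500 ng/ml for 24 h. One sample each came from fresh and from immortalised mesenchymal cells of the duodenum of a PdgfraH2BeGFP mouse, in which a nuclear green fluorescent protein marks Pdgfra-expressing cells. The immortalised sample carried the HPV16 E6 gene from a retrovirus, was selected with puromycin and was sorted for high green fluorescence. Roman numerals name the replicates as in the sample titles. The labels do not say whether replicates came from separate mice or cultures, so p-values measure only the spread between these samples, which may be technical.

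Before a cell divides it copies its genome in S phase. The origin recognition complex, with Cdc6 and Cdt1, loads the MCM2-7 ring onto DNA as an inactive helicase, and Mcm10, Cdc45 and the GINS complex turn it into the active one. DNA polymerase alpha with primase starts each strand, polymerases epsilon and delta extend it on the Pcna clamp, and Fen1 and Lig1 join the lagging-strand pieces. Ribonucleotide reductase, thymidylate synthase and thymidine kinase supply deoxynucleotides. Many of these genes are known targets of the E2F transcription factors at the G1/S boundary. In the intestine, proliferation is confined to the crypt, where BMP signalling is low, and cells on the villus, where BMP signalling is high, no longer divide.

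In the BMP table each sample's gene counts were divided by a size factor of that sample, giving the normalized counts below, and 21358620 to 24784834 reads per sample could be recovered from them. The Tgfb and mesenchymal tables hold TPM (transcript abundance scaled to a fixed total, a level per transcript length), which keeps no depth. All 7 epithelial markers were detected in every organoid group. The summed level of the 7 mesenchymal markers listed in the BMP table was 27.3 to 242 normalized counts per sample. Dcn had no entry there. Col3a1 was at 0 in the untreated, BMP5 and BMP7 groups, and Twist1 in the BMP4 and BMP5 groups. The epithelial markers summed to 102000 to 114000 normalized counts in untreated samples, 106000 to 118000 under BMP3, 184000 to 302000 under BMP5, 225000 to 318000 under BMP7, 253000 to 358000 under BMP4 and up to 767000 under BMP2. In the mesenchymal samples the mesenchymal markers summed to 17300 TPM (fresh) and 5540 TPM (immortalised), against 28.8 and 0.118 TPM for the epithelial markers. Changes below are log2 differences of values plus 1, tested with limma in a single fit of all groups of a table, and p-values were adjusted by Benjamini-Hochberg across every gene tested, with a change called below 0.05.

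Promoter sequences of 33 of the 40 genes were present in the RefSeq table for build GRCm38.p6 and were searched from 250 bases before to 50 bases after the start site, in 38 windows. The build differs from the GRCm39 build of the deposited values, so the windows were matched by symbol. The search used the letters TTTCCCGC, TTTGGCGC, TTTCGCGC and TTTGCCGC, all forms of the E2F site, on both strands and with overlaps allowed. At least 1 of these was present in 13 of 33 members (39.4%), against 2.6% of all genes in the promoter table and 4.53% of the genes tested here. The NF-Y letters CCAAT were in 60.6% of members, against 41.1% of all genes and 43.5% of tested genes. The CHR letters TTTGAA, known from late cell cycle genes, were in 12.1% of members, against 20.2% and 14.9%. The letters GGCGCC, bound by BMP-activated Smads, were in 24.2% of members, against 13.4% of all genes and 23.7% of tested genes. The Smad palindrome GTCTAGAC was in 0 of 33 members, against 0.248% of all genes. The 12-letter run TTTCGCGCCAAA, in which 2 of the E2F forms overlap, was taken from the Mcm5 promoter, where it lies on the gene's strand. Its match in Mcm5 was therefore fixed in advance. Among the other members only Mcm6 carried it, on the other strand. It was found in 4 of 10562 tested genes (0.0379%), Mcm5 included. A match is a description of letters and not a bound site.
The 250 bases before the start site are shown for the helicase subunits with the largest and the smallest fall under BMP2 (Mcm5 and Mcm6) and for Pola1, Prim1 and Tk1, which fell most under BMP2 among the polymerase and nucleotide supply genes. Capitals mark the E2F letters found, on either strand, and Prim1 and Tk1 have none in this window. Mcm5 is at chr8:75109259-75109508 (plus strand), Mcm6 at chr1:128359706-128359955 (minus strand), Pola1 at chrX:93632156-93632405 (minus strand), Prim1 at chr10:128014965-128015214 (plus strand) and Tk1 at chr11:117826015-117826264 (minus strand), each read 5′ to 3′ on the gene's strand.
Mcm5: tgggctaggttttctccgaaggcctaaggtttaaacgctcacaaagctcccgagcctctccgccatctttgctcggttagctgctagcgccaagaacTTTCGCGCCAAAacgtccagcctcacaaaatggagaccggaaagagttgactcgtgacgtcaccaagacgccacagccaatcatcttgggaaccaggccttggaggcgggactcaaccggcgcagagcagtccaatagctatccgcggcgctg
Mcm6: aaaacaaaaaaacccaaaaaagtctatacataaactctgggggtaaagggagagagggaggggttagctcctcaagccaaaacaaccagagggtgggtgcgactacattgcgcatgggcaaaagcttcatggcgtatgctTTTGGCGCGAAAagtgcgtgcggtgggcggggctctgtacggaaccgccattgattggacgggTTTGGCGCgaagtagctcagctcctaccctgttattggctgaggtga
Pola1: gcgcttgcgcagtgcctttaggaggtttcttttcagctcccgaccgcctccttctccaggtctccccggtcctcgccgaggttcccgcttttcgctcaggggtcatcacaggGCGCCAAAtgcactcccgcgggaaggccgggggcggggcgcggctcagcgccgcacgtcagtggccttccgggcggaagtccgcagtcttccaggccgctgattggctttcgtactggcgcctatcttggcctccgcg
Prim1: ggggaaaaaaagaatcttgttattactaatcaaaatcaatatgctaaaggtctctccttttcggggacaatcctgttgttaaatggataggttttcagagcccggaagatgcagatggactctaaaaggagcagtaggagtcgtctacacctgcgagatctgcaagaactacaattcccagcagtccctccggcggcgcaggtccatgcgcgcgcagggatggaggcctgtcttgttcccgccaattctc
Tk1: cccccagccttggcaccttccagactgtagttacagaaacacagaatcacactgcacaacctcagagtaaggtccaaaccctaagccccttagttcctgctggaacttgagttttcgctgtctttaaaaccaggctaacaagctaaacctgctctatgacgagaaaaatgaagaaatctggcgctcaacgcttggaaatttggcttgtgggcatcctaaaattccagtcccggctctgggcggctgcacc

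BMP2 and BMP4 lowered all 40 genes. Under BMP2 the members were left at 3.1% to 48.4% of the untreated mean (median 11.3%), with a median log2 change of -3.16 and a highest adjusted p of 3.6e-05 (limma). Under BMP4 they were left at 11.3% to 62.3% (median 22%), with a median log2 change of -2.22 and a highest adjusted p of 0.000925 (limma). In both comparisons the highest treated sample lay below the lowest untreated sample for all 40. The share of all genes without such overlap is not given here for BMP2 or BMP4. Over all 14746 genes tested, 38.4% were called lower under BMP2 and 31.4% under BMP4, with medians of -0.03 and 0.04. In bulk RNA, fewer replicating cells and less RNA per cell cannot be told apart. Summed crypt stem cell markers fell alongside, from 99800 to 124000 normalized counts in untreated samples to 1170 to 2050 under BMP2 and 3690 to 6500 under BMP4, with all 5 markers still above 0. Their part in the change of the replication genes was not tested. Rescaling every sample to the same total moved the median of all genes to -0.49 (BMP2) and -0.35 (BMP4), and the members' medians to -3.61 and -2.62. On that scaling 68.5% of all called genes were lower under BMP2 and 69.1% under BMP4, in place of 51.1% and 48.3%, and all 40 members stayed called lower.

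**Figure D1:**
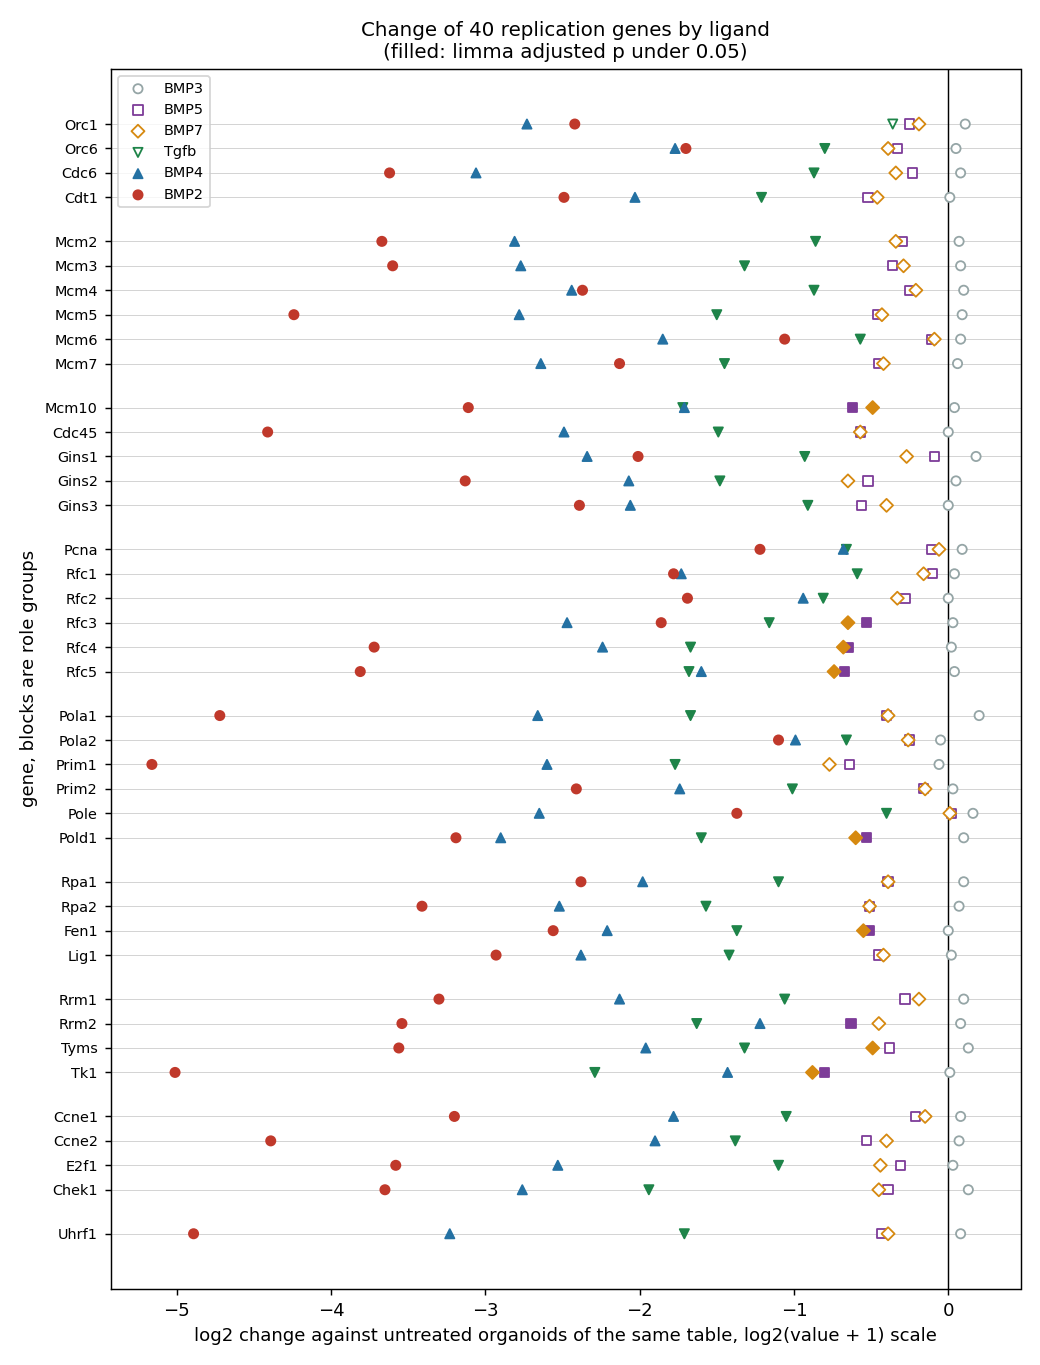
Log2 change of each of the 40 genes (vertical axis, in blocks by role) against untreated organoids of the same table, on the log2(value + 1) scale, with 1 symbol per ligand, filled where the limma adjusted p was under 0.05. BMP2 and BMP4 symbols are all filled, Tgfb lies right of BMP2 for every gene and left of BMP4 for Mcm10, Rfc5, Rrm2 and Tk1, BMP5 and BMP7 lie close to 0 with 8 filled symbols each, and BMP3 lies around 0 with none.

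Origin licensing genes are the first step. Cdc6, the ATPase that loads the helicase, read 831, 753, 831 and 784 normalized counts in untreated samples II, III, IV and VI. It read 89.7, 42.2, 69.4 and 64.5 under BMP2 and 98.4, 58.2 and 150 under BMP4 (samples II, III and VI). Neither treated group overlapped the untreated one, with log2 changes of -3.62 (SE 0.227, adjusted p = 5.52e-11, limma) and -3.06 (SE 0.245, adjusted p = 5.55e-09, limma), the largest falls of the licensing genes under each. Orc6, a subunit of the origin recognition complex, fell least of the licensing members. It went from 683, 612, 564 and 641 to 224, 178, 158 and 211 under BMP2 and to 154, 151 and 260 under BMP4. These were changes of -1.70 and -1.77. Orc1, the ATPase of the complex, changed by -2.42 and -2.73, and Cdt1, the partner of Cdc6 in loading, by -2.49 and -2.03.

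The MCM2-7 subunits, which work together in 1 ring, did not fall evenly under BMP2. Mcm5 read 3560, 3150, 2940 and 3070 in untreated samples and 110, 132, 168 and 321 under BMP2, which is 5.75% of the untreated mean (log2 change -4.24, SE 0.285). Mcm6 read 5780, 5020, 4530 and 5040 untreated and 1970, 2610, 2250 and 3030 under BMP2, which is 48.4% (log2 change -1.06, SE 0.183). So both fell without overlap, but Mcm6 kept a far larger share, and the other subunits lay between, with Mcm2 at 8.29%, Mcm3 at 8.7%, Mcm4 at 20.2% and Mcm7 at 22.9%. Under BMP4 the spread was smaller: Mcm2 fell to 15.3%, Mcm3 to 15.9%, Mcm5 to 15.8%, Mcm7 to 16.9% and Mcm4 to 20.1%, and Mcm6 again kept most, at 28.9%. Mcm2, the largest fall under BMP4, read 2870, 2700, 2410 and 2590 untreated and 308, 273 and 633 under BMP4. Mcm6 read 1240, 1050 and 2130 under BMP4. Sample VI was the highest BMP4 sample for all 40 members. On the TPM scale, where levels can be compared between genes, Mcm7 and Mcm6 were also the most abundant subunits of untreated organoids in the Tgfb experiment, at 131 ± 6.2 and 105 ± 4.4 TPM (SD, n = 3). Mcm5 was at 68.9 ± 3.79, Mcm3 at 59.7 ± 3.72, Mcm4 at 56.2 ± 2.8 and Mcm2 at 45.1 ± 2.18 TPM. Mcm3 and Mcm4 overlapped in their sample ranges.

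**Figure D2:**
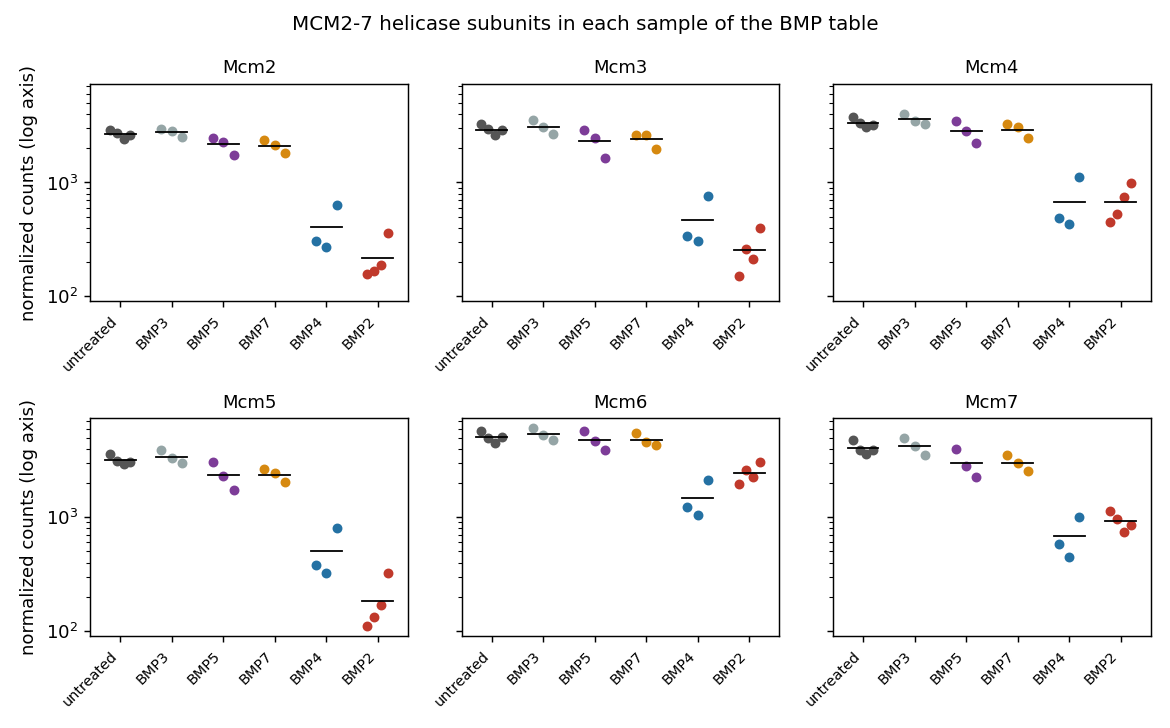
Normalized counts (log axis) of the 6 MCM2-7 subunits in each sample of the BMP table, with points for samples in the order of their replicate numbers and bars for group means. Mcm5 drops from about 3000 to between 110 and 321 under BMP2, while Mcm6 stays between 1970 and 3030 there and is lower under BMP4.

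Of the genes that activate the helicase, all 5 fell under both ligands. Cdc45, the helicase cofactor that is loaded at origin firing, fell from 572, 552, 486 and 561 normalized counts to 19.3, 17.9, 23.5 and 44.3 under BMP2 and to 75.9, 63.9 and 178 under BMP4. Its log2 changes were -4.41 (SE 0.285, adjusted p = 8.18e-11, limma) and -2.49 (SE 0.308, adjusted p = 1.07e-06, limma). Gins1, a subunit of the GINS complex, fell least under BMP2, from 300, 229, 240 and 296 to 68.1, 56.3, 67.1 and 69.6 (log2 change -2.01), and read 48.6, 39.9 and 69.4 under BMP4 (log2 change -2.34). Gins2 changed by -3.13 and -2.07 and Gins3 by -2.39 and -2.06 under BMP2 and BMP4. The GINS subunits form 1 complex, and Gins2 fell most of these 3 under BMP2. Gins4, a further subunit of the complex, lies outside the 40 genes. It averaged 473.5 normalized counts untreated, 312.5 under BMP2 and 272 under BMP4, a smaller fall than that of Gins1, Gins2 or Gins3. Mcm10, which binds the helicase at firing, read 1340, 1380, 1340 and 1320 untreated, 143, 129, 176 and 177 under BMP2 and 411, 323 and 523 under BMP4.

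Pcna, the sliding clamp, was the most abundant member per length (307 TPM in untreated organoids) and kept the largest share of the 40 under BMP4 (62.3%) and the third largest under BMP2 (42.9%). It read 6420, 5510, 4660 and 5700 normalized counts untreated, 2540, 2260, 1980 and 2790 under BMP2 and 3290, 3180 and 3950 under BMP4. These were log2 changes of -1.22 and -0.68. The clamp loader subunits split under BMP2. Rfc5 fell from 1190, 1090, 969 and 1080 to 85.1, 67.8, 54.1 and 106 (log2 change -3.81), and Rfc4 changed by -3.72, whereas Rfc1, Rfc2 and Rfc3 changed by -1.78, -1.69 and -1.86. Under BMP4 the order was different, with Rfc3 falling most, from 803, 707, 619 and 672 to 113, 108 and 160 (log2 change -2.47), and Rfc5 changing by -1.60. Pcna and Tyms each have a processed pseudogene row in the TPM tables, and how reads were divided between copies is not given in the sources used here.

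The polymerase and primase genes gave the widest range under BMP2. DNA polymerase alpha and primase act as 1 complex of 4 subunits. Prim1, the catalytic primase, read 1110, 1030, 1030 and 1070 normalized counts untreated and 17, 19.2, 24.7 and 82.3 under BMP2, the largest log2 fall among the 40 (log2 change -5.16, SE 0.352, adjusted p = 1.71e-10, limma). Pola1, the catalytic polymerase subunit, read 1560, 1370, 1470 and 1200 untreated and 36.3, 48.6, 44.7 and 91.1 under BMP2. The non-catalytic partners kept more: Prim2 fell to 19.8% of the untreated mean and Pola2 to 47.3%, against 3.38% for Prim1 and 3.94% for Pola1. Pola2 read 1070, 1060, 1110 and 1170 untreated, 385, 514, 540 and 648 under BMP2, and 468, 495 and 736 under BMP4. Under BMP4 the complex was lower by -2.66 (Pola1), -2.60 (Prim1), -1.74 (Prim2) and -0.99 (Pola2). Pold1, the catalytic subunit of polymerase delta, fell most of these genes under BMP4, from 1070, 1120, 1030 and 1010 to 109, 125 and 206 (log2 change -2.90). Pole, the catalytic subunit of polymerase epsilon, read 1490, 1260, 1430 and 1090 untreated, 481, 675, 518 and 391 under BMP2 and 177, 186 and 274 under BMP4.

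All 4 single-strand binding and fragment joining genes fell under both ligands. Rpa2, a subunit of the single-strand binding protein, fell from 1020, 803, 740 and 819 normalized counts to 74.9, 72.9, 72.9 and 93.7 under BMP2 and to 117, 129 and 203 under BMP4. Its log2 changes were -3.41 and -2.52. Rpa1, its partner, fell least, from 2220, 2020, 2040 and 2160 to 304, 433, 383 and 532 under BMP2 and 440, 395 and 882 under BMP4 (-2.38 and -1.98). Fen1, the flap endonuclease, changed by -2.56 and -2.21, and Lig1, the ligase, by -2.93 and -2.38.

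Deoxynucleotide supply genes fell more under BMP2 than under BMP4. Tk1, the S-phase thymidine kinase, read 1140, 1080, 880 and 1050 normalized counts untreated, 36.3, 25.6, 22.4 and 44.3 under BMP2 and 311, 332 and 548 under BMP4. That is a log2 change of -5.01 (SE 0.243, adjusted p = 2.28e-12, limma) under BMP2 and -1.43 (SE 0.263, adjusted p = 0.000104, limma) under BMP4. Rrm1, the large subunit of ribonucleotide reductase, read 5100, 4720, 4630 and 4760 untreated, 380, 441, 469 and 709 under BMP2 and 887, 858 and 1740 under BMP4. Rrm2, the small subunit, read 1830, 1810, 1620 and 1840 untreated, 163, 129, 108 and 234 under BMP2 and 679, 605 and 1080 under BMP4. The log2 changes of Rrm1 and Rrm2 were -3.30 and -3.54 under BMP2 and -2.13 and -1.22 under BMP4. Tyms, thymidylate synthase, changed by -3.56 and -1.96.

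Of the G1/S genes, Ccne2, a cyclin that drives S-phase entry, read 461, 425, 524 and 538 normalized counts untreated, 19.3, 10.2, 23.5 and 50.6 under BMP2 and 116, 83.3 and 221 under BMP4. Its changes were -4.39 and -1.90. Ccne1, the other cyclin E, fell least, from 353, 337, 343 and 325 to 37.5, 48.6, 29.4 and 31.6 under BMP2 and to 71.1, 75.3 and 177 under BMP4 (-3.20 and -1.78). Chek1, the replication checkpoint kinase, read 589, 564, 522 and 607 untreated, 34.1, 35.8, 41.2 and 77.2 under BMP2 and 78.2, 67.3 and 110 under BMP4 (-3.65 and -2.76). E2f1, an activating E2F factor, changed by -3.58 and -2.53. Uhrf1, which guides DNA methylation onto newly copied DNA, read 3900, 3510, 3240 and 3520 untreated, 79.5, 102, 114 and 209 under BMP2 and 308, 284 and 613 under BMP4. Its change of -3.23 under BMP4 was the largest of the 40 there.

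**Figure D3:**
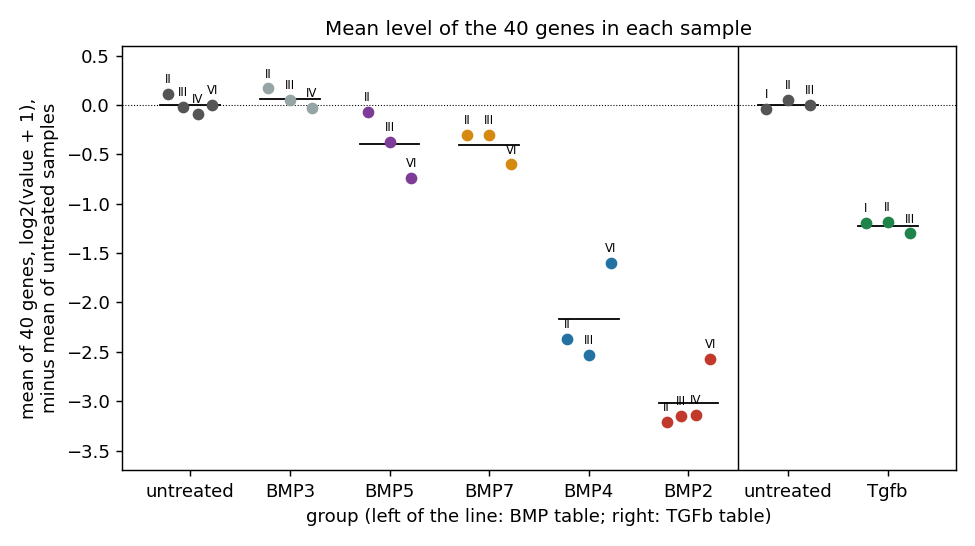
Mean log2(value + 1) of the 40 genes in each sample, minus the mean of the untreated samples of the same table, with points labelled by replicate number and bars for group means. The BMP2 samples lie between -3.21 and -2.57, the BMP4 samples between -2.53 and -1.60, and sample VI stands highest in both of these groups and lowest under BMP5 and BMP7.

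BMP2 and BMP4 were then compared directly, and the difference was gene by gene. Of the 40 genes, 24 were lower under BMP2 than under BMP4, 3 were higher and 13 did not pass the test (limma). Over all genes tested, 33.4% were lower and 33.4% higher under BMP2. All 4 supply genes and all 4 G1/S genes were among the 24, led by Tk1 at 8.1% of its BMP4 level (log2 difference -3.59, 95% interval -4.14 to -3.04). Prim1, Ccne2, Rrm2, Rfc5 and Pola1 followed, at differences of -2.56, -2.49, -2.32, -2.21 and -2.06. The 3 that were higher under BMP2 were Pole (log2 difference 1.28, SE 0.206, adjusted p = 2.29e-05), Mcm6 (0.79, SE 0.197, adjusted p = 0.00167) and Rfc3 (0.61, SE 0.177, adjusted p = 0.0051, all limma). Every BMP2 sample lay above every BMP4 sample for Pole, while Mcm6 and Rfc3 overlapped through BMP4 sample VI. Rfc3 read 191, 210, 154 and 219 under BMP2 against 113, 108 and 160 under BMP4. Among the 13, Mcm4 read 448, 528, 746 and 988 under BMP2 and 485, 429 and 1110 under BMP4, a difference of 0.07 with an interval of -0.50 to 0.65. Orc6, Rfc1 and Pola2 had differences of 0.07, -0.05 and -0.11. Without BMP4 sample VI, 20 were lower and 6 higher, with Orc1, Mcm7 and Gins1 added. Summed enterocyte markers differed between these groups, at 319000 to 403000 normalized counts under BMP4 and 28400 to 76700 under BMP2, and their part in the differences was not tested.

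**Figure D4:**
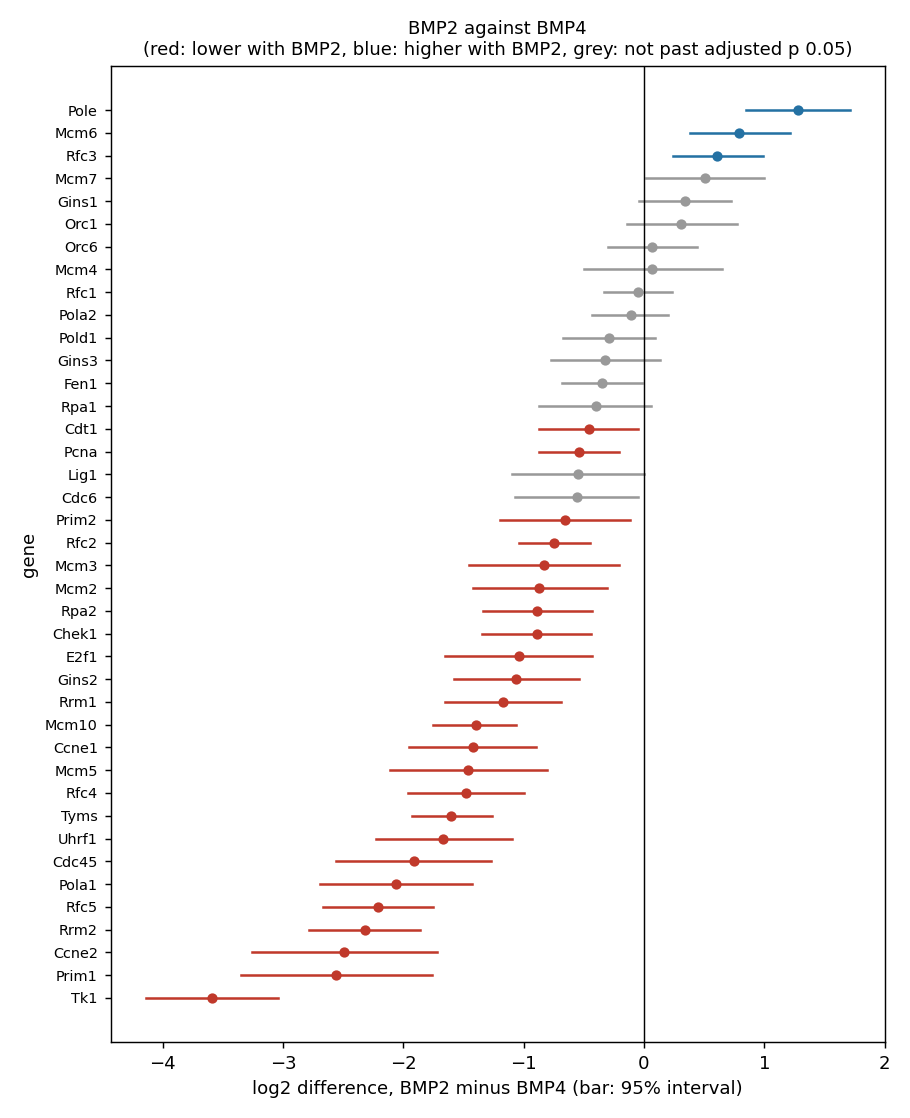
Log2 difference between BMP2 and BMP4 (BMP2 minus BMP4) for each of the 40 genes, sorted, with 95% intervals as bars, red where lower under BMP2, blue where higher and grey where not past the threshold. Tk1 lies at -3.59, and Pole, Mcm6 and Rfc3 lie at 1.28, 0.79 and 0.61.

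Under BMP5 and BMP7 the changes were small, and 39 of the 40 were negative in each. The medians of all genes were -0.03 and -0.05. In the main fit 8 members were called lower under each ligand. That count ran from 0 to 14 (BMP5) and from 1 to 27 (BMP7) in alternative runs. Under BMP5, 8 of 40 genes were called lower (Mcm10, Rfc3, Rfc4, Rfc5, Pold1, Fen1, Rrm2 and Tk1), against 9.87% of all genes tested, and the median change was -0.40. Under BMP7, 8 of 40 were called lower (Mcm10, Rfc3, Rfc4, Rfc5, Pold1, Fen1, Tyms and Tk1), against 13.2% of all genes, and the median change was -0.40. Tk1 changed most in both. It read 857, 615 and 395 normalized counts under BMP5 and 588, 682 and 439 under BMP7 (samples II, III and VI), below the untreated 880 to 1140, with log2 changes of -0.80 (adjusted p = 0.0307) and -0.88 (adjusted p = 0.0152, both limma). Mcm10 read 1100, 854 and 714 under BMP5 and 1060, 1050 and 783 under BMP7, below the untreated range of 1320 to 1380. At the other end Pole read 1650, 1360 and 1040 under BMP5 and 1520, 1550 and 971 under BMP7, with sample VI below the untreated range of 1090 to 1490 in both and sample II above it, and differences of 0.02 and 0.01. Every BMP5 sample lay below every untreated sample for 17 members, against 16.4% of all genes, and every BMP7 sample did so for 27, against 20.8%. No MCM2-7 subunit was called under either ligand. The BMP5 and BMP7 comparisons use the same untreated samples.

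The BMP5 and BMP7 counts changed with single samples. In each group sample VI was the lowest for nearly all members, 40 of 40 under BMP5 and 39 of 40 under BMP7. The mean of the 40 genes was -0.07, -0.37 and -0.74 relative to untreated in BMP5 samples II, III and VI, and -0.30, -0.30 and -0.60 in BMP7 samples II, III and VI. Without BMP5 sample VI no member was called under BMP5, without BMP5 sample III 1 was, and without BMP5 sample II 14 were. Without untreated sample II, III or VI the BMP5 count was 2, 2 or 1. Without BMP7 sample VI only Rfc3 stayed called under BMP7, whereas without all samples numbered VI 9 members were called. The counts over all genes moved as well. Leaving out 1 sample, the genes called lower ran from 713 to 1748 under BMP5 and from 1210 to 1871 under BMP7. Deviations of same-numbered treated and untreated samples correlated at 0.158 to 0.262 for BMP5 and 0.236 to 0.294 for BMP7. The members' mean in untreated sample VI was 0, so it did not share the low values of sample VI in these groups. With the replicate number as a block 14 members were lower under BMP7 and 9 under BMP5. The BMP7 count was 27 with only the BMP7 and untreated samples in the fit and 18 with quantile normalization. Of all 14746 genes, 1940 were called lower under BMP7 in the main fit, 2938 with quantile normalization and at most 3148 in any alternative. For BMP5 the main fit called 1455 of all genes lower, and the alternatives 713 to 2593. The crypt stem cell marker sum was 27400 to 77200 normalized counts under BMP5 and 24200 to 28500 under BMP7, and the epithelial marker sum was above the untreated range in both groups. The part of these markers in the counts was not tested. In the direct comparison of BMP5 with BMP7 none of the 40 genes passed the test, at 0.0136% of all genes called in either direction. The largest differences were -0.19 (Rrm2) and 0.18 (Gins1), no member was under an unadjusted p of 0.05 in limma, and edgeR and DESeq2 on the recovered reads called none. The widest interval, for Prim1, ran from -0.72 to 0.98.

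Against BMP7, all 40 genes were lower under BMP2 and 39 of 40 under BMP4 (limma), with 31.4% of all genes lower in the first and 31.4% in the second. Tk1 was the gene not called under BMP4, at 69.7% of its BMP7 level (log2 difference -0.54, interval -1.13 to 0.04). The median differences were -2.60 and -1.79.

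Under BMP3 none of the 40 genes passed the test, and 0% of all genes tested passed in either direction. The members' log2 changes ran from -0.06 (Prim1) to 0.20 (Pola1), none had an unadjusted p under 0.05 in limma, and edgeR and DESeq2 on the recovered reads called none. Chek1 was the single member with every BMP3 sample (618, 629 and 620) above every untreated one (522 to 607), at a log2 difference of 0.13. Mcm6 had an interval of -0.34 to 0.49 and Prim1, the widest, one of -0.86 to 0.74.

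Tgfb lowered 39 of the 40 genes, against 29.3% of all 12959 genes tested in that table, with a median log2 change of -1.27. The groups did not overlap for those 39. The 29.3% counts calls, and the share of all genes without overlap is not given here. Tk1 fell most, from 44.9, 52.5 and 55.7 TPM in untreated samples I, II and III to 10.4, 10.4 and 8.1 TPM (log2 change -2.29, SE 0.126, adjusted p = 2.82e-05, limma). Chek1 fell from 40.4, 45.5 and 45 to 9.35, 11.7 and 10.9 TPM, the next largest change at -1.94. Mcm10, the helicase activation gene that changed most, fell from 31.9, 29 and 24.4 to 8.32, 7.5 and 7.91 TPM. Prim1 fell from 40, 43.8 and 38.1 to 11.6, 11.9 and 10.2 TPM, and Rfc5 from 37.9, 39 and 38.2 to 8.74, 12.2 and 13.4 TPM. Under Tgfb the catalytic subunits of polymerase alpha and primase again kept less than their partners, with Prim1 at 27.7% of untreated, Pola1 at 27.7%, Prim2 at 46.6% and Pola2 at 62.1%. Pole fell least of the polymerase genes, from 15.7, 15.7 and 16.1 to 12.1, 10.8 and 12.6 TPM (log2 change -0.40). Mcm6 fell least of the MCM2-7 subunits, from 101, 110 and 103 to 75, 68.8 and 66.4 TPM, and Mcm5 fell most, from 66.3, 73.2 and 67.1 to 25.2, 23.3 and 22.5 TPM. Mcm6 was therefore the most abundant subunit after Tgfb at 70 ± 4.43 TPM (SD, n = 3), above Mcm7 at 47.3 ± 2.73, whereas Mcm7 had been higher before. Orc1 was not called: it read 7.43, 8.26 and 7.75 TPM untreated and 4.67, 4.33 and 9.75 TPM with Tgfb (log2 change -0.36, adjusted p = 0.304, limma). Without Tgfb sample III it was called, at -0.68 (adjusted p = 0.00292, limma). Crypt stem cell markers summed to 2500 to 2960 TPM untreated and 165 to 172 TPM with Tgfb. Epithelial markers summed to 2730 to 3000 TPM untreated and 9170 to 12200 TPM with Tgfb. The part of both marker lists in the change was not tested.

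**Figure D5:**
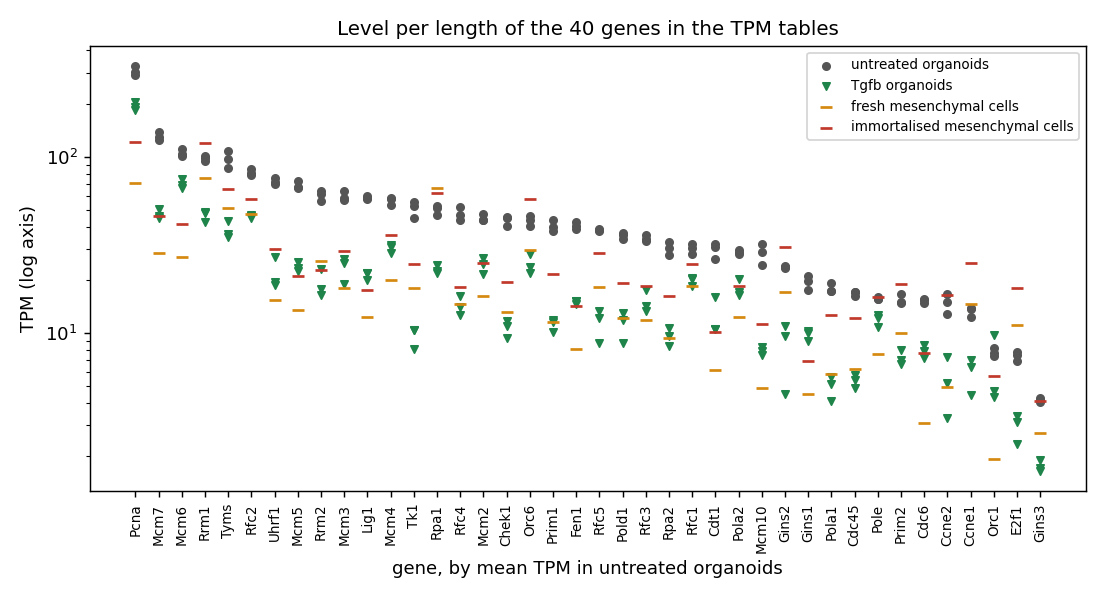
TPM (log axis) of the 40 genes, sorted by their mean in untreated organoids, in each of the 3 untreated and 3 Tgfb organoid samples and in the single fresh and immortalised mesenchymal samples, which come from a table scaled separately. Every Tgfb triangle lies below the untreated circles of the same gene except 1 sample of Orc1, and the immortalised bar lies above the fresh bar for 38 genes.

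Other lists of the same process, with members outside the 40, were counted in the same fits. They too were chosen with earlier results of these data known. Beside these lists and those of the next paragraph, which were chosen likewise, stand the counts over all genes tested. Under BMP2, 5657 of 14746 genes were lower and 5420 higher, and under BMP4 4633 and 4964. Under Tgfb, 3798 of 12959 genes were lower and 3550 higher. Of 35 other replication genes, 31 were lower and 2 higher under BMP2, 33 lower and 1 higher under BMP4, and 26 lower and 1 higher under Tgfb. Dna2, a helicase-nuclease, changed most under BMP2 (-6.15), and Pold4, the smallest subunit of polymerase delta, rose under all 3 ligands, by 2.59, 2.02 and 2.12. Dscc1, which helps load Pcna, changed most under BMP4 (-3.16). Of 27 other nucleotide synthesis genes, 21 were lower and 2 higher under BMP2, 22 lower and 0 higher under BMP4, and 22 lower and 1 higher under Tgfb. Dut, which removes dUTP, fell most under BMP2 (-5.50) and Ppat, which starts purine synthesis, under BMP4 (-3.40). Rrm2b, the ribonucleotide reductase subunit used outside S phase, rose under BMP2 (1.14), opposite to Rrm2. Under Tgfb, Shmt1, which serves thymidylate synthesis, fell most (-2.18) and Tk2, the mitochondrial thymidine kinase, was the gene called higher (0.64), while Ctps2, a CTP synthase, had a difference of 0.88 that did not pass (adjusted p = 0.176, limma).

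Of 22 E2F, Rb and G1/S regulators, 18 were lower and 1 higher under BMP2, 15 lower and 3 higher under BMP4, and 16 lower and 1 higher under Tgfb. Ccna2, the S-phase cyclin, changed most under BMP2 (-6.12), and E2f7, a repressing E2F, under BMP4 (-2.95). Mycn, a Myc family factor, rose under BMP2 (2.56), BMP5 (3.73), BMP7 (3.69) and Tgfb (3.45) and fell under BMP4 (-1.16). Rb1, which holds E2F inactive, rose under BMP4 (1.59). Of the 6 tested CDK inhibitors, Cdkn1a rose most (3.16 under BMP2, 2.80 under BMP4 and 1.83 under Tgfb) and Cdkn2c fell most (-4.74, -2.05 and -1.57). All 9 chromatin replication genes were lower under BMP2, BMP4 and Tgfb, led by Cdca7 (-6.37, -4.00 and -1.89). The 24 mitotic genes were all lower under BMP2, BMP4 and Tgfb, at medians of -4.72, -1.69 and -1.40, beside -3.16, -2.22 and -1.27 for the 40 replication genes. In the direct comparison, 23 of the 24 mitotic genes were lower under BMP2 than under BMP4, against 33.4% of all genes, and Kif23 was higher.

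The mesenchymal cells have 1 sample each and no test. Of the 40 genes, 38 were higher in immortalised than in fresh cells, with a median ratio of 1.61, against 0.979 over 13652 genes with a mean of at least 1 TPM, of which 48.6% were higher. A ratio of at least 2 was reached by 6 members, against 7.86% of those genes. They were Ccne2 (4.93 to 16.4 TPM), Orc1 (1.94 to 5.69), Cdc6 (3.08 to 7.74), Mcm10 (4.91 to 11.2), Pola1 (5.86 to 12.7) and Pole (7.64 to 16 TPM). Rpa1 (66.5 to 61.9 TPM) and Rrm2 (25.7 to 22.9 TPM) were lower. Mcm6 read 27 TPM in fresh and 41.5 TPM in immortalised cells, Mcm7 28.4 and 45.9 TPM, and the other MCM2-7 subunits were also higher in the immortalised cells. The samples differ in the retroviral gene, selection and sorting, which cannot be told apart.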

How the data were processed

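RNA of 28 samples was sequenced (KAPA mRNA kit, single-end reads). The authors deposited the BMP table as a normalized signal, in which each sample's gene counts were divided by its size factor and rounded to 3 significant digits. The Tgfb and mesenchymal tables were deposited by the authors as TPM, each column summing to the same total, so their depth is unknown. Trim Galore, Salmon, DESeq2 and build GRCm39 are named in the submitters' processing notes, without their roles. Of 180721 low BMP values, 100% were whole multiples of the value of 1 read (0.826 to 1.28; tolerance 0.03 reads per read up to 3 reads), so whole reads were recovered and used only for edgeR 4.0.16 and DESeq2 1.42.0 as alternatives.

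Tests used limma 3.58.1 (R 4.3.3, intensity trend, two-sided) on log2(value + 1). Genes had a mean of at least 10 (14746 genes, BMP table) or 1 TPM (12959 genes, Tgfb table). The fit was tested on simulated data. Replicate numbers were taken to pair the samples of BMP3, BMP4, BMP5 and BMP7 with the untreated ones. Same-numbered deviations correlated above 0.1 in every pair there (0.158 to 0.553). BMP2 did not meet this in pair III (0.0182), though pairs II, IV and VI reached 0.195, 0.421 and 0.308. Tgfb met it in no pair (0.00405 to 0.0696). This rule rests on correlation alone, as the labels do not say what the numbers mark. The main tests left the pairing out in every group, and the replicate block was run only as an alternative. Members and lists were chosen with earlier results of these data known. All 40 members could be named, with every sample's value for the lowest and highest change of each role group, and for other lists the largest rise and fall. Tk2, Kif23, Gins4, Orc2, Orc3, Orc4, Orc5 and the full values of Mcm4, Pola1 and Chek1 outside that rule were chosen after they were seen. Left-out samples, pseudocounts, filters, scalings, a replicate block and fits of only the compared groups were the alternatives. Promoters were read from RefSeq GRCm38.p6 by symbol. Members without an entry were Mcm4, Gins1, Gins2, Rfc2, Prim2, Pole and Ccne2.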

Additional observations from a re-analysis of the deposited data

Results flagged for a closer look

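In groups of 4 samples, the value of 1 sample stood apart from the other 3 by Dixon's test at 95% in 8 of the 80 gene and group combinations tested, where chance flags about 1 in 20. In the untreated group both were sample IV: Rfc4 read 686 normalized counts against 746 to 748 in the others, and Rrm2 read 1620 against 1810 to 1840. Under BMP2 all 6 were sample VI, which was the highest. Mcm2 read 363 there against 156 to 189, Gins2 73.4 against 40.9 to 41.2, and Prim1 82.3 against 17 to 24.7. Prim2 read 165 against 71.6 to 82.3, Rpa2 93.7 against 72.9 to 74.9, and Chek1 77.2 against 34.1 to 41.2. BMP2 sample VI was the highest of its group for 33 of the 40 members.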

How the results depend on the processing

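The 40 members all stayed lower under BMP2, under BMP4 and under BMP2 against BMP7 in every alternative run, the count for BMP4 against BMP7 ran from 38 to 40, and the Tgfb count ran from 36 (a filter of at least 10 TPM, which 36 members pass) to 40. The BMP5 and BMP7 counts, 8 each, were the least stable and the cause was not tested. For BMP5 the count was 4 with no filter, 1 without all samples numbered VI (chosen after seeing the data) and 0 to 14 leaving out 1 sample. For BMP7 it was 13 with every sample at the same total, 18 with quantile normalization, 14 with the replicate block, 27 with only the compared groups in the fit, 13 with DESeq2 on recovered reads, 9 without all samples numbered VI, and 1 to 8 leaving out 1 sample. For BMP2 against BMP4 the count of higher members, 3, was 6 without all samples numbered VI and 3 to 6 leaving out 1 sample, and the count of lower members ran from 20 to 28. The replicate block gave 4 higher there, with Mcm7 added (0.59, adjusted p = 0.0192), and moved no count of member calls by over 1.5 times other than that for BMP7. For Tgfb and BMP2, whose numbers were not taken to pair the samples, the block gave 39 and 40. Scaling to the same total or by quantiles moved the share of lower calls among all calls from 37.5% to 44.6% and 50.2% (BMP5) and from 40.6% to 51.5% and 52% (BMP7). It moved the share from 49.9% to 73.5% and 47.1% for BMP2 against BMP7, and from 52.5% to 71.4% and 52.1% for BMP4 against BMP7. No called member changed direction under any alternative run. The count of all genes called lower under BMP7 moved from 1940 to 2731 with the same total and 2938 with quantiles. Under BMP5 it moved from 1455 to 1893 and 2413, and leaving out 1 sample gave 713 to 1748. The TPM tables carry no depth, so no limit of detection could be set there. On the recovered reads edgeR called 5846 of all genes lower under BMP2, 5141 under BMP4, 1663 under BMP5, 2029 under BMP7 and 0 under BMP3, and among the members 10 under BMP5 and 9 under BMP7.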
